A study of Mus musculus with 6 samples.

Results

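The genes examined here are 32 genes of the G2 phase and mitosis, taken by symbol from the 57180 rows of the deposited expression table. All 32 were found once and all 32 were abundant enough to be tested. None of the 32 passed the test between cells labelled as overexpressing SNHG1 and vector cells, and no 95% interval reached a 1.5-fold change in either direction. The fitted fold changes lay between 0.904 (Nusap1) and 1.15 (Ube2c and Bub1b). The genes did move together from library to library, and in this respect single libraries within a group lay farther apart than the group means did.

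Libraries were poly(A)-selected mRNA from GC-1 spg, an immortalised mouse germ cell line, with 3 labelled Ov_SNHG1 and 3 labelled Vector, all collected 24 h after transfection. The Ov_SNHG1 libraries carry the genotype label of SNHG1 overexpression, a long non-coding RNA made from a small nucleolar RNA host gene, and the Vector libraries that of the vector control. All 6 also carry the same label naming non-obstructive azoospermia as treatment, so that wording does not separate the groups. The labels give neither the species and sequence of the SNHG1 insert, nor the transfection efficiency, nor whether replicates were separate cultures. A p-value here therefore reflects only the spread among these 6 libraries, and that spread may be technical. The line is a single immortalised line and stands for no tissue.

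Entry into mitosis is driven by cyclin B bound to the kinase Cdk1, which Cdc25 phosphatases activate. Polo and Aurora kinases then build the spindle, the spindle checkpoint delays chromosome separation until every kinetochore is attached, and the anaphase-promoting complex with its activator Cdc20 destroys the cyclins and ends mitosis. Most of these transcripts are low in G1 and accumulate late in the cycle, through promoter elements named CHR and CCAAT that are bound by the DREAM and MuvB complexes and by NF-Y, so in a growing culture their level follows how many cells are in those phases. In bulk RNA, fewer cells in those phases and less RNA per cell cannot be told apart.

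Total counts were 15521900 to 21095427 per library. Snhg1, which checks the labels, had 24.0, 26.3 and 25.2 counts per 1000000 (CPM) in the Ov_SNHG1 libraries against 22.1, 25.9 and 20.9 CPM in the Vector libraries, a log2 fold change of 0.14 ± 0.10 (SE; edgeR, adjusted p = 0.52), so the groups overlapped, an increase of the mouse gene was not detected and directions below follow the labels. On the second principal component over all tested genes, Ov_SNHG1 replicate 1 (27.9) was apart from the other Ov_SNHG1 libraries (-10.3 and -13.3). The Vector libraries spread from -17.8 to 17.7 on it, with Vector replicate 3 the nearest to Ov_SNHG1 replicate 1. Of 10 spermatogonial markers, Zbtb16, Ret, Kit, Ddx4 and Sall4 had 0 counts in every library. The 10 markers summed to 2.18 to 2.77 CPM in Ov_SNHG1 and 1.61 to 2.39 CPM in Vector libraries. Most of this sum was Gfra1, detected in every library at 23 to 53 counts (1.48 to 2.72 CPM). The other 9 each had under 10 counts over all libraries together. The 6 fibroblast and peritubular markers, mainly collagen I chains, summed to 17500 to 18300 CPM in Ov_SNHG1 and 20800 to 22100 CPM in Vector libraries. Apart from the low Gfra1 level, the germ cell label is not borne out by these markers. Of the fibroblast and peritubular list, Dcn had only 2 to 5 counts and Myh11 0 to 7 counts per library. Its genes moved both ways between the groups, with Col1a2 at -0.30 ± 0.04 and Pdgfra at 0.47 ± 0.07 (log2, SE; edgeR adjusted p = 0.00797 and 0.0143). The 6 macrophage and leukocyte markers summed to 41.8 to 48.1 CPM in Ov_SNHG1 and 33.6 to 34.4 CPM in Vector libraries. Most of this sum was Cd14 (means of 24.4 and 14.4 CPM) and Lyz2 (15.3 CPM in both groups). Cd68 was also higher in Ov_SNHG1 (3.83 against 2.47 CPM) and Csf1r lower (1.04 against 1.43 CPM). The leukocyte gene Ptprc had only 2 to 9 counts and Adgre1 2 to 7 counts per library, so the sum does not show that leukocytes are present. The 5 Sertoli markers summed to 61.2 to 71.2 CPM in Ov_SNHG1 and 58.8 to 76.9 CPM in Vector libraries, mostly from Sox9, with Gata4 and Amh detected and Wt1 and Cldn11 at 0 in every library. The 5 Leydig markers summed to 2.28 to 3.01 CPM in Ov_SNHG1 and 2.33 to 2.84 CPM in Vector libraries (Star and Insl3 detected, Cyp11a1, Cyp17a1 and Hsd3b1 at 0), and the 3 endothelial markers to 0.975 to 1.66 CPM in Ov_SNHG1 and 0.952 to 1.14 CPM in Vector libraries (Pecam1 and Cdh5 detected, Kdr at 0). What part these marker differences have in the values below was not tested.

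Together the 32 genes took 0.319%, 0.366% and 0.361% of all counts in Ov_SNHG1 replicates 1, 2 and 3, against 0.356%, 0.327% and 0.329% in Vector replicates 1, 2 and 3. Counts per gene and library ran from 317 to 13184. On the authors' FPKM scale, which divides by a gene length, Cdc20 stood highest at 67.3, 89.4 and 84.1 FPKM in Ov_SNHG1 and 76.3, 66.2 and 74.1 FPKM in Vector libraries. It was followed by Mki67 (Ki-67, which coats mitotic chromosomes), with a mean of 56.0 FPKM over the 6 libraries, and by Top2a (DNA topoisomerase II alpha), with 53.4 FPKM. Cdc25c was lowest at 2.94 FPKM. The length behind the FPKM values exceeded the longest coding GENCODE M21 transcript by more than 1% for 31 of the 32 genes, with a median ratio of 1.72 and a highest ratio of 6.62 for Cenpa. Divided by that transcript length instead, the order changed for some members. Cenpa, the centromeric histone H3 variant, moved to place 5, against place 22 by FPKM, and Prc1 to place 8, against place 20, while Top2a came first with 110 CPM per kilobase.

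Promoter sequence was not used to choose these genes, and is shown because the elements named above recur in it. RefSeq windows of the GRCm38.p6 build, 250 bases before to 50 after the annotated start, were at hand for 26 of the 32 genes. The CHR letters TTTGAA or TTCGAA on either strand were present in 20 of the 26 (76.9%), against 16.7% of 9606 tested genes with a window, and CCAAT on either strand in 22 (84.6%), against 44.3%. Both were present in 19 of the 26 (73.1%), against 8.52% of tested genes with a window. Among 93 other mitosis genes with a window the shares were 52.7% for CHR, 61.3% for CCAAT and 36.6% for both, and among 33 genes of G1/S and replication 18.2%, 69.7% and 15.2%. Neither motif contains the other, and their matches may overlap in part. A CHR match lay within 50 bases of the start in 19 of the 26, against 39.8% of other mitosis genes, 9.09% of G1/S genes and 4.46% of all tested genes with a window. Below are the 6 members in which the 120 bases before the start hold both a CHR match and a CCAAT match upstream of it, a layout found in 11.8% of other mitosis genes, 3.03% of G1/S genes and 1.08% of all tested genes with a window. Mki67 has CHR matches at -116 and -98, with its CCAAT matches farther upstream than 120 bases, and is not shown. Each sequence runs 5′ to 3′ on the gene's strand over positions -120 to -1, and capitals mark the CHR and CCAAT matches of either strand.
Cdk1 (chr10:69352913-69353032, minus strand): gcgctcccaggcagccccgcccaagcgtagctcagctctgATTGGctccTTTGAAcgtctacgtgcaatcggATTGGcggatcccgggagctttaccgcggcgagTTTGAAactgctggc
Cdc20 (chr4:118437344-118437463, minus strand): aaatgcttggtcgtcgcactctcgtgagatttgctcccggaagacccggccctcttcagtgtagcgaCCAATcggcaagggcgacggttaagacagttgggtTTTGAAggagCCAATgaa
Ube2c (chr2:164769809-164769928, plus strand): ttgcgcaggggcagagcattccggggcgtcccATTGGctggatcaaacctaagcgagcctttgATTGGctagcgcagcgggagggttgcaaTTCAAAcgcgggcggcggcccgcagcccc
Top2a (chr11:99024190-99024309, minus strand): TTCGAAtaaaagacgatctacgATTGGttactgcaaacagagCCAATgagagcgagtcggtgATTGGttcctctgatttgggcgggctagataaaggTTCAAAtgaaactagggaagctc
Kif11 (chr19:37376262-37376381, plus strand): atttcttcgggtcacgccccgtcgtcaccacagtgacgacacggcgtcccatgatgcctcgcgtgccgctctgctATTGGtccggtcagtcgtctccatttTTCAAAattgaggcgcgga
Prc1 (chr7:80294356-80294475, plus strand): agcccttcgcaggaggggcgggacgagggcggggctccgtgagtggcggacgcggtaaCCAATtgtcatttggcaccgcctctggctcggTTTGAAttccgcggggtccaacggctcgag
The CHR match nearest the start began at -15 in Cdk1, -18 in Cdc20, -29 in Ube2c, -23 in Top2a, -19 in Kif11 and -30 in Prc1. The nearest CCAAT match upstream of it began 33 bases before it in Cdk1, 35 in Cdc20, 28 in Ube2c, 35 in Top2a, 26 in Kif11 and 32 in Prc1. Prc1 has another annotated start, from which its CHR match began at -5 and ran across the start. By that start Prc1 does not have this layout. Several other members carry the CHR match just after the start, such as Ccnb2 at position 5, Cenpa at 17, Plk1 at 31 and Bub1b at 41. In the other 6 members with a window, Ccnb1, Nek2, Mad2l1, Cenpe, Birc5 and Nusap1, these letters were not in the window. A match is a description of the letters and no evidence of binding in these cells.

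Of the 32 genes, 0 rose and 0 fell in Ov_SNHG1 against Vector libraries (edgeR quasi-likelihood test, Benjamini-Hochberg adjusted p of 0.165 to 0.995), where 2.4% of the 14605 tested genes were called, 1.54% as higher and 0.856% as lower. DESeq2 called 0 of the 32 and limma-voom 0, against 5.01% and 2.38% of the genes each tested. An unadjusted p under 0.05 was reached by 2 of the 32, Bub1b and Plk1, both higher, against 17% of all tested genes. The median log2 fold change of the 32 was 0.055, beside 0.0065 for all tested genes. Of the 32, 20 were above 0, beside 51.3% of all tested genes. The groups did not overlap for 2 of the 32, Bub1b above and Nusap1 below, where 11.3% of all tested genes were apart upward, 12.4% downward and 23.7% in either direction. Standard errors had a median of 0.076 on the log2 scale. The interval bounds farthest from 0 were -0.31 (Nusap1) and 0.46 (Ube2c), and a 1.5-fold change is 0.58.

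**Figure D1:**
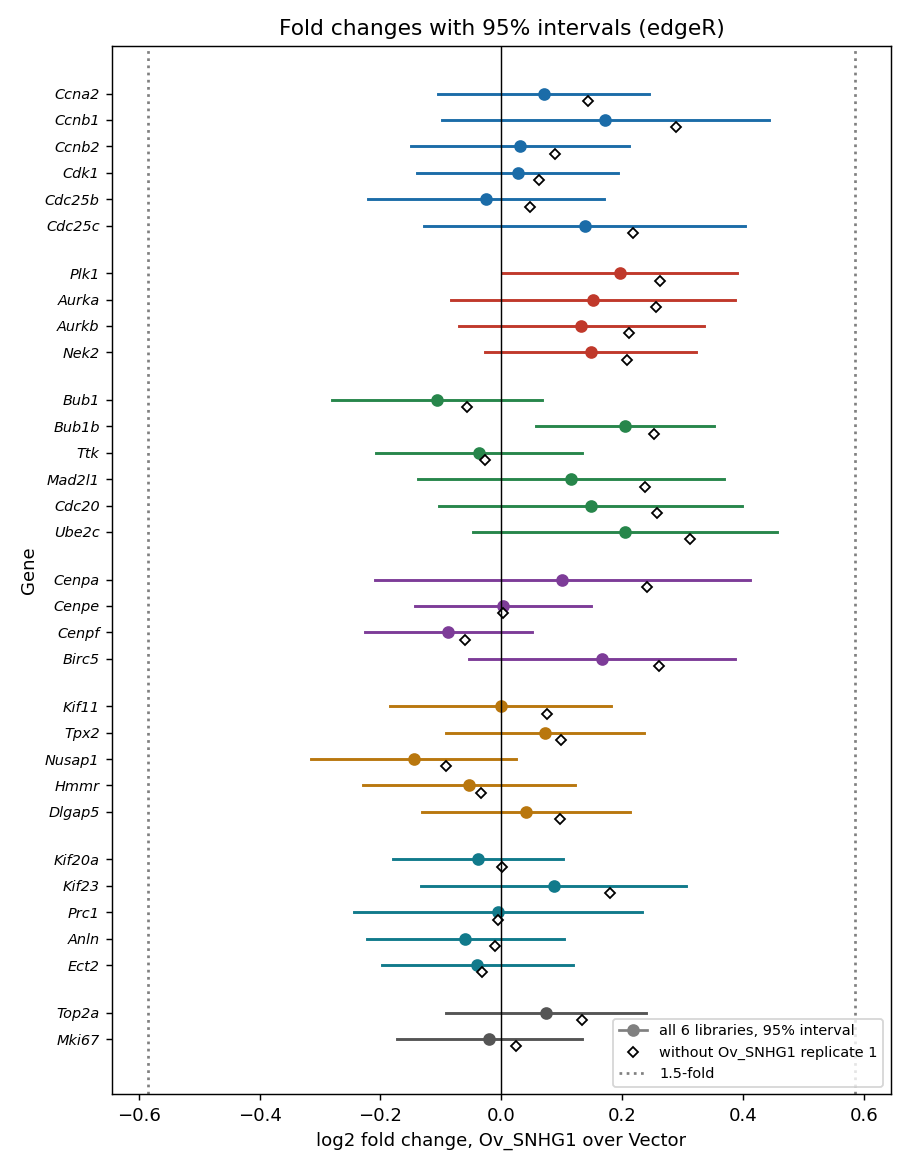
Log2 fold change of each of the 32 genes (x axis, Ov_SNHG1 over Vector, from edgeR with 3 libraries per group), grouped by role, with filled circles and bars for the estimate and 95% interval over all 6 libraries and open diamonds for the estimate without Ov_SNHG1 replicate 1. All intervals stay inside the dotted 1.5-fold lines, and the diamonds lie to the right of the circles in 31 of 32 genes.

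Among the genes that start mitosis, Ccnb1 (cyclin B1) had 36.6, 46.9 and 48.8 CPM in Ov_SNHG1 replicates 1, 2 and 3, against 42.2, 39.3 and 36.1 CPM in Vector replicates 1, 2 and 3. The low Ov_SNHG1 library lies within the Vector range and the other 2 lie above it. The log2 fold change was 0.17 ± 0.12 (SE, adjusted p = 0.491). Its partner kinase Cdk1 had 72.5, 73.4 and 83.7 CPM against 77.0, 72.1 and 76.3 CPM, with a log2 fold change of 0.027 ± 0.072 (SE, adjusted p = 0.881). Ccna2 (cyclin A2, active from S phase into early mitosis) averaged 126.8 ± 11.96 CPM in Ov_SNHG1 and 120.8 ± 3.09 CPM in Vector libraries (SD, n = 3 each), and Ccnb2 (cyclin B2) 36.3 ± 3.02 and 35.6 ± 0.781 CPM (SD, n = 3 each). The Cdk1-activating phosphatases had opposite signs: Cdc25c stood at 0.14 ± 0.12 and Cdc25b at -0.026 ± 0.085 on the log2 scale (SE), with adjusted p of 0.569 and 0.904.

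All 4 mitotic kinases had fold changes above 0, and none passed. Plk1 (polo-like kinase 1, chromosome 7, 121758662 to 121769096 on the deposited coordinates) had 90.4, 98.1 and 112 CPM in Ov_SNHG1 libraries against 91.0, 83.3 and 87.9 CPM in Vector libraries. Only Ov_SNHG1 replicate 1 fell into the Vector range. Its log2 fold change was 0.20 ± 0.08 (SE, adjusted p = 0.293). Aurka (Aurora A, which matures centrosomes) had 41.8, 53.3 and 52.6 CPM against 46.8, 43.8 and 42.3 CPM, and Aurkb (Aurora B, which corrects wrong attachments) 39.8, 48.4 and 46.6 CPM against 42.2, 38.7 and 42.1 CPM. Nek2, which splits the centrosomes, had 53.7, 60.6 and 62.1 CPM against 55.8, 51.0 and 52.3 CPM. In these 3 genes too, Ov_SNHG1 replicates 2 and 3 were above all Vector libraries and replicate 1 was not. Their log2 fold changes were 0.13 to 0.15 (adjusted p = 0.36 for Nek2, 0.482 for Aurkb and 0.488 for Aurka).

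The spindle checkpoint and anaphase genes held the 2 highest fold changes. Bub1b (the checkpoint protein BubR1, chromosome 2, 118428692 to 118472072 on the deposited coordinates) had 89.8, 99.3 and 101 CPM in Ov_SNHG1 libraries, against 86.9, 82.6 and 82.6 CPM in Vector libraries. It was the only member with all Ov_SNHG1 libraries above all Vector libraries, and its log2 fold change of 0.20 ± 0.06 (SE) had the lowest adjusted p of the 32, 0.165. Its relative Bub1, the kinase that recruits checkpoint proteins to kinetochores, had 46.9, 54.4 and 50.3 CPM against 56.4, 55.4 and 51.6 CPM, a log2 fold change of -0.11 ± 0.08 (SE, adjusted p = 0.505). Ube2c, the ubiquitin-conjugating enzyme of the anaphase-promoting complex (chromosome 2, 164611818 to 164620742), had 59.9, 74.1 and 79.2 CPM against 63.2, 56.4 and 65.4 CPM. The log2 fold change of 0.20 ± 0.11 (SE) did not pass (adjusted p = 0.377). Cdc20 had 155, 205 and 193 CPM against 176, 152 and 171 CPM, and Mad2l1 (Mad2, which holds Cdc20 in check) 46.4, 62.8 and 60.1 CPM against 52.6, 52.7 and 51.1 CPM. In both genes Ov_SNHG1 replicates 2 and 3 were above every Vector library and replicate 1 was not. Ttk (the kinase Mps1) differed little, at 27.1 ± 1.10 CPM in Ov_SNHG1 and 27.8 ± 1.11 CPM in Vector libraries (SD, n = 3 each).

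**Figure D2:**
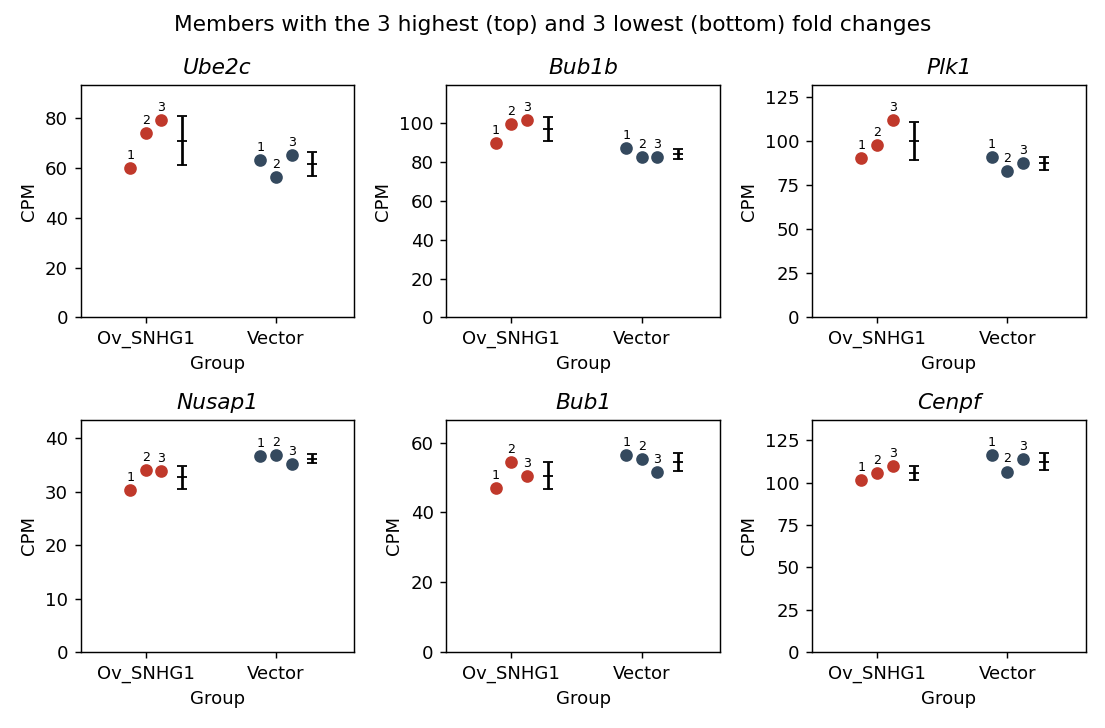
CPM (y axes, from 0) of the 3 members with the highest fold changes, Ube2c, Bub1b and Plk1 (top), and the 3 with the lowest, Nusap1, Bub1 and Cenpf (bottom), in the Ov_SNHG1 and Vector groups. Numbered points are replicates and black bars the mean ± SD (n = 3), and the groups are apart only for Bub1b and Nusap1.

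At the centromere, Cenpa had 54.3, 76.9 and 73.8 CPM in Ov_SNHG1 libraries and 69.5, 64.4 and 57.3 CPM in Vector libraries, the widest relative spread within a group among these 4 genes. Birc5 (survivin, a partner of Aurora B) had 56.8, 73.6 and 66.7 CPM against 60.6, 58.6 and 56.4 CPM, with a log2 fold change of 0.17 ± 0.10 (SE, adjusted p = 0.408). The large kinetochore proteins were nearer to 0, with Cenpe (a kinesin that moves chromosomes to the spindle equator) at 0.0027 ± 0.063 and Cenpf (which joins the outer kinetochore in G2) at -0.088 ± 0.060 on the log2 scale (SE).

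The spindle proteins lay on both sides of 0. Nusap1, which bundles microtubules near chromosomes (chromosome 2, 119448779 to 119481725), was the lowest of all members. It had 30.2, 34.1 and 33.8 CPM in Ov_SNHG1 libraries against 36.6, 36.8 and 35.1 CPM in Vector libraries, so the groups were apart, and its log2 fold change was -0.14 ± 0.07 (SE, adjusted p = 0.356). The motor Kif11, which pushes the spindle poles apart, stood at -0.0012 ± 0.079, Tpx2 (the activator of Aurora A) at 0.072 ± 0.071, Hmmr (a spindle-associated hyaluronan receptor) at -0.054 ± 0.076 and Dlgap5 (which stabilises kinetochore microtubules) at 0.041 ± 0.075 on the log2 scale (SE). Of the 5 genes of the spindle midzone and cytokinesis, 4 had values below 0 and none passed (adjusted p = 0.676 to 0.986). Prc1, which cross-links midzone microtubules, had 121, 122 and 120 CPM in Ov_SNHG1 libraries and 143, 110 and 110 CPM in Vector libraries, so Vector replicate 1 alone was high. Kif23, the motor of the centralspindlin complex, had 48.4, 59.8 and 59.9 CPM against 54.8, 49.6 and 53.9 CPM. Anln (anillin, a scaffold of the contractile ring) stood at -0.060 ± 0.071, Ect2 (which activates RhoA at the cleavage site) at -0.040 ± 0.068 and Kif20a (a kinesin of the central spindle) at -0.038 ± 0.061 on the log2 scale (SE). The proliferation markers Top2a and Mki67 averaged 588 ± 45.1 and 576 ± 33.8 CPM in Ov_SNHG1 libraries, and 558 ± 31.9 and 584 ± 35.1 CPM in Vector libraries (SD, n = 3 each).

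The genes shared a pattern over libraries. For each gene the log2 CPM of a library was set against the mean of that gene over the 6 libraries, and these deviations were averaged over the 32 genes. The average was -0.11, 0.10 and 0.083 in Ov_SNHG1 replicates 1, 2 and 3, against 0.048, -0.061 and -0.061 in Vector replicates 1, 2 and 3. Over all tested genes the same averages lay between -0.013 and 0.02. The mean difference between the groups was 0.049, beside an SD over libraries of 0.116 in Ov_SNHG1 and 0.063 in Vector (n = 3 each). The range was 0.21 within Ov_SNHG1 and 0.11 within Vector. Single libraries spread more widely than means of 3, so these values do not exclude a group difference. Ov_SNHG1 replicate 1 was below the gene mean for 31 of the 32 genes and the lowest of the 6 libraries for 15, where 15.4% of all tested genes had their lowest value in it. Ov_SNHG1 replicate 2 was above the gene mean for 28 of the 32 genes, Ov_SNHG1 replicate 3 for 25 and Vector replicate 1 for 25.

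**Figure D3:**
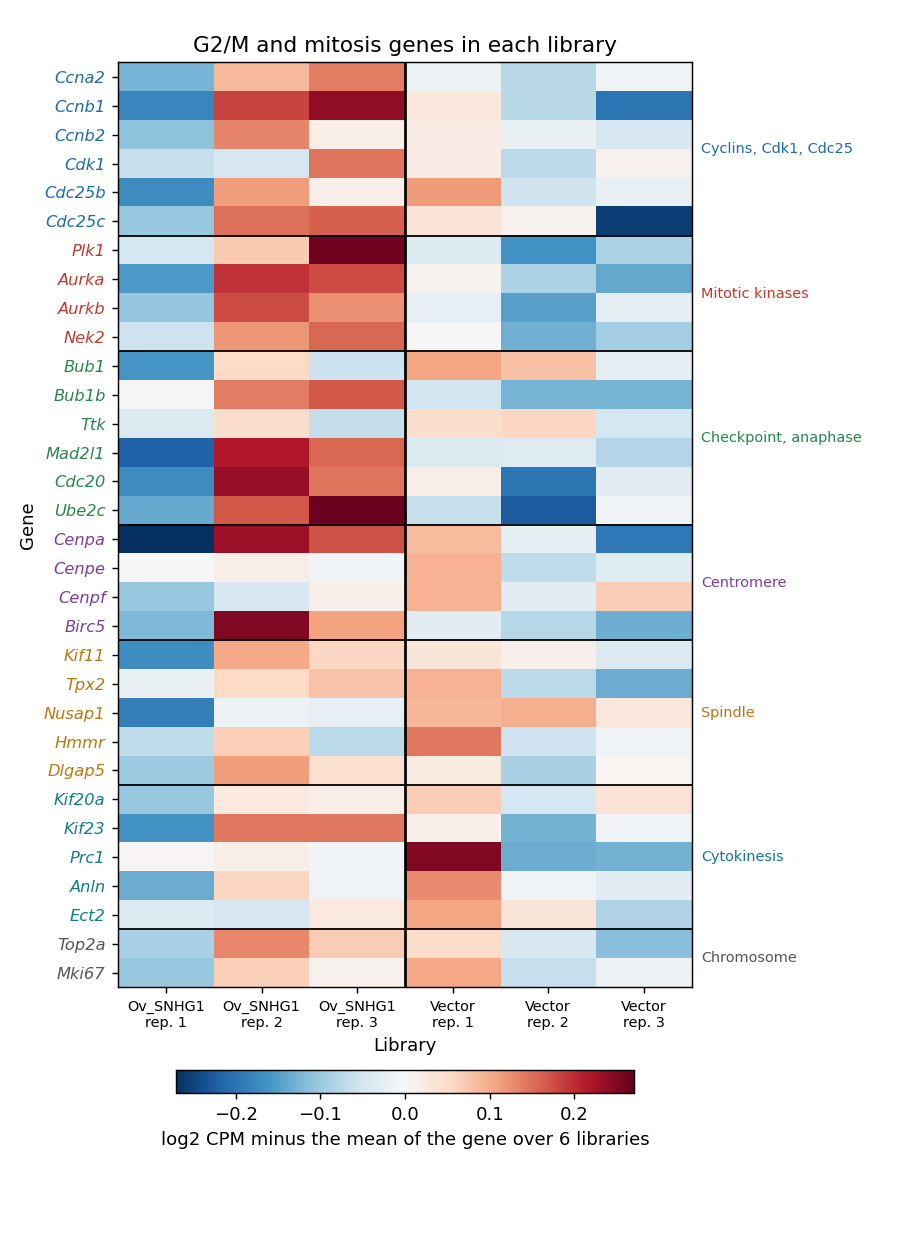
Deviation of each of the 32 genes (rows, by role) from its mean log2 CPM over the 6 libraries (columns, Ov_SNHG1 left of Vector), in log2 units from blue (low) to red (high). The Ov_SNHG1 replicate 1 column is blue for 31 of 32 genes, and Vector replicate 1 is highest for 4 of the 5 cytokinesis genes.

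Pairs of members correlated across the 6 libraries with a median Pearson r of 0.57 over 496 pairs, and 93.8% of pairs were above 0, against a median of -0.001 and 49.9% over all pairs of tested genes. With group means taken out the median was 0.74, against 0 over all pairs. These are descriptions over 6 libraries that share their depth and composition. The closest pairs were Aurkb with Cdc20 (r = 0.99), Ccnb1 with Aurka (0.98) and Ccna2 with Kif23 (0.98). The least alike were Cdk1 with Ttk (-0.55), Plk1 with Ttk (-0.44) and Bub1b with Nusap1 (-0.39). The last pair, apart in opposite directions between the groups, had r = 0.89 once group means were taken out. Each member was positively correlated with the mean of the other 31, between 0.2 for Ttk and 0.95 for Aurka, with 16 of the 32 at 0.8 or more.

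By role, the library with the highest average was not the same for the mitotic kinases and the cytokinesis genes. The 4 mitotic kinases averaged -0.091, 0.14 and 0.18 in Ov_SNHG1 replicates 1, 2 and 3, and -0.012, -0.13 and -0.085 in Vector replicates 1, 2 and 3. The 5 cytokinesis genes averaged -0.087, 0.039 and 0.034 against 0.11, -0.057 and -0.042, so their highest library was Vector replicate 1. In both roles Ov_SNHG1 replicate 1 was below 0. Whether the roles differ was not tested.

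**Figure D4:**
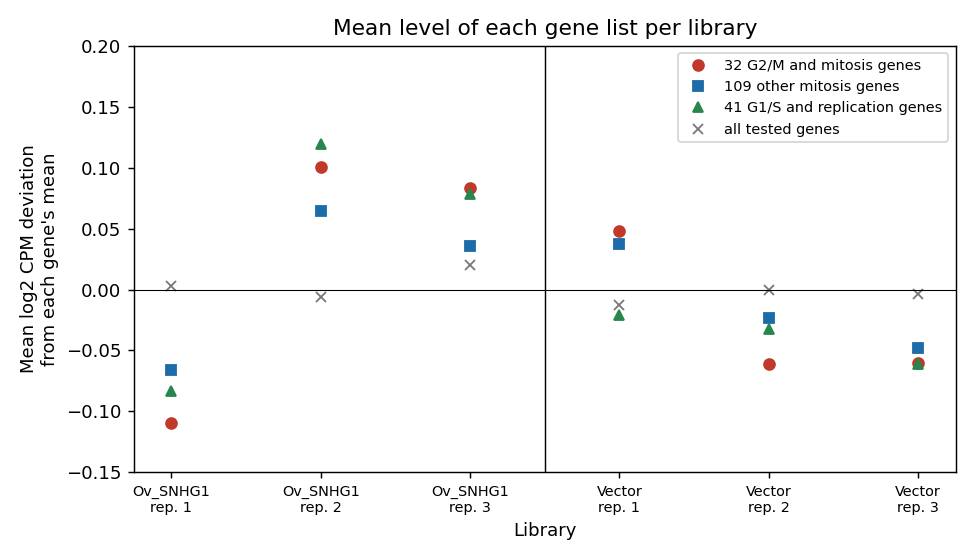
Mean deviation of log2 CPM from each gene's mean (y axis) in each library (x axis, Ov_SNHG1 left of Vector) for the 32 genes, 109 other mitosis genes, 41 genes of G1/S and replication and all tested genes. For the 3 cell cycle lists Ov_SNHG1 replicate 1 is the lowest library and Ov_SNHG1 replicate 2 the highest, while all tested genes stay between -0.013 and 0.02.

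Without Ov_SNHG1 replicate 1, which leaves 2 Ov_SNHG1 and 3 Vector libraries, the fold change of 31 of the 32 genes was higher. Their median log2 fold change was 0.097 and 24 were above 0, beside 49.8% of all tested genes. In that fit 1 of the 32 rose, Bub1b (log2 fold change 0.25 ± 0.05, SE, edgeR adjusted p = 0.049), where 2.91% of all tested genes were called higher and 5.42% in either direction. An unadjusted p under 0.05 was reached by 13 of the 32, all higher, where 24% of all tested genes reached it in either direction. The next lowest adjusted p were those of Mad2l1 (0.0739), Ube2c (0.0745), Birc5 (0.0849) and Aurka (0.0883). Ov_SNHG1 replicate 1 was already below the gene mean for 31 of the 32 genes. The higher fold changes without it restate that pattern on the same values and are no separate result. Leaving out Vector replicate 1, the highest Vector library, gave a median of 0.093 with 26 above 0 and no call. In that fit 50% of all tested genes were above 0 and 0.828% were called. The other libraries, left out 1 at a time, lowered the median and gave no call. It was 0.0165 without Ov_SNHG1 replicate 2 (17 above 0) and 0.0319 without Ov_SNHG1 replicate 3 (20 above 0). Without Vector replicate 2 it was 0.0314 (18 above 0) and without Vector replicate 3 0.029 (19 above 0).

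Fold change followed base composition among these genes. Across the 32, the log2 fold change and the GC content of the longest coding transcript had a Spearman rho of 0.61, and fold change and transcript length a rho of -0.49, beside 0.3 and -0.21 over 14235 tested genes with a sequence. The relation was not particular to the 32. Over 108 other mitosis genes with a sequence the 2 values were 0.59 and -0.31, and over 41 genes of G1/S and replication 0.41 and -0.063. Genes share their libraries here and are not independent. The 16 members with the higher GC content (46.6% to 56%), such as Plk1, Cdc20 and Ube2c, had a median log2 fold change of 0.14, and the 16 with the lower (40.1% to 46.3%), such as Nusap1, Bub1 and Ect2, a median of -0.0031. Of the higher 16, 13 were above 0, and of the lower 16, 7 were. With smooth trends on GC content and length removed from each library, 26 of the 32 were above 0, the median was 0.075 and 0 passed. In that fit 48.7% of all tested genes were above 0 and 2.86% were called. The same removal left the pattern over libraries in place, at -0.12, 0.13 and 0.10 in Ov_SNHG1 replicates 1, 2 and 3 and at 0.03, -0.085 and -0.061 in Vector replicates 1, 2 and 3.

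**Figure D5:**
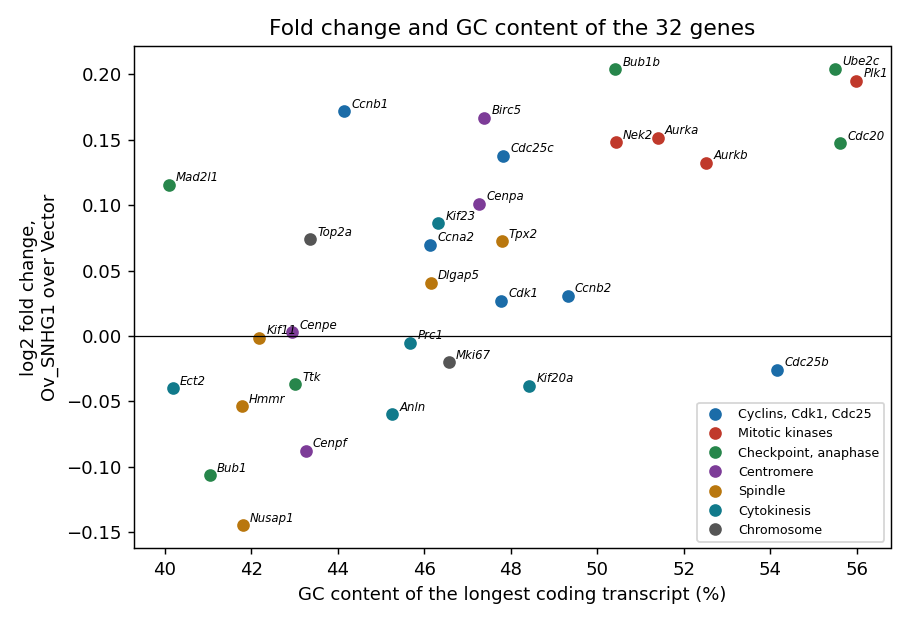
Log2 fold change, Ov_SNHG1 over Vector (y axis), against GC content of the longest coding GENCODE M21 transcript in percent (x axis) for the 32 genes, coloured by role. GC-rich members such as Plk1, Cdc20 and Ube2c lie at the upper right and GC-poor ones such as Nusap1 and Bub1 at the lower left (Spearman rho 0.61). Others lie off this order, such as Mad2l1 (40.1%, log2 fold change 0.12) and Cdc25b (54.2%, -0.026).

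Of 109 other genes of mitosis, all tested, 0 rose and 0 fell with edgeR. An unadjusted p under 0.05 was reached by 18 (9 higher and 9 lower), against 17% of all tested genes. DESeq2 called 1 of the 109 and limma-voom 0, against 5.01% and 2.38% of the genes each tested. The median log2 fold change of the 109 was 0.02. Foxm1 and Mybl2, transcription factors that activate late cell cycle genes, did not pass. Foxm1 had 72.6, 88.5 and 54.8 CPM in Ov_SNHG1 against 80.6, 37.6 and 56.2 CPM in Vector libraries, differing by more than 2-fold within the Vector group, and Mybl2 38.1, 48.5 and 44.9 CPM against 39.1, 37.6 and 38.9 CPM (adjusted p = 0.59 and 0.347). Lin54, the subunit of the MuvB complex that contacts the CHR element, stood at -0.04 ± 0.11 on the log2 scale (SE). Of the NF-Y subunits that bind CCAAT, Nfyc stood at 0.39 ± 0.11 and Nfya at -0.16 ± 0.06 (log2, SE; adjusted p = 0.132 and 0.214). Gtse1, a microtubule-associated protein of G2, had the lowest adjusted p of the list, 0.1, at 62.6, 69.1 and 59.7 CPM against 54.1, 48.1 and 52.7 CPM. Stag2, a cohesin subunit, had 188, 160 and 161 CPM against 210, 213 and 198 CPM, a log2 fold change of -0.29 ± 0.07 (SE, adjusted p = 0.105), and DESeq2 called it lower (adjusted p = 0.0298; the alternatives gave 0.0169 to 0.306). Without Ov_SNHG1 replicate 1, Stag2 fell and Nfyc rose (edgeR adjusted p = 0.0169 and 0.0375), where 5.42% of all tested genes were called in either direction.

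The highest and lowest of the other lists were Pttg1 (securin, 0.47 ± 0.17) and Fbxo5 (the inhibitor Emi1, -0.22 ± 0.09) for the anaphase-promoting complex and its substrates, Mad1l1 (0.21 ± 0.09) and Knl1 (-0.13 ± 0.07) for the checkpoint, Cenpu (0.27 ± 0.13) and Cenpk (-0.25 ± 0.16) for the centromere, Kif18b (0.23 ± 0.09) and Cep55 (-0.33 ± 0.13) for the spindle and cytokinesis, and Ncaph (0.14 ± 0.12) for condensin, all as log2 fold changes ± SE and none past the threshold. Pbk, at -0.15 ± 0.08, was the lowest of the mitotic entry genes.

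Among 7 genes listed as brakes of the G2/M transition, 1 rose, where 1.54% of all tested genes were called higher. Gadd45a, a stress-induced inhibitor of Cdk1, had 20.0, 21.6 and 21.6 CPM in Ov_SNHG1 against 12.8, 14.8 and 14.96 CPM in Vector libraries, with the groups apart and a log2 fold change of 0.57 ± 0.10 (SE, edgeR adjusted p = 0.0241). The call was lost with the replicate number as a block (adjusted p = 0.0639) and without any single library other than Ov_SNHG1 replicate 1 (adjusted p up to 0.0993). Trp53 stood at 0.31 ± 0.08, Cdkn1b (p27) at -0.21 ± 0.08, Chek2 at 0.19 ± 0.15, Chek1 at -0.10 ± 0.13 and Cdkn1a (p21) at -0.0092 ± 0.11 on the log2 scale (SE), and none passed, apart from Trp53 with DESeq2 (adjusted p = 0.0316). Sfn (14-3-3 sigma) had at most 1.23 CPM in any library and stood at 0.49 ± 0.48.

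Of 41 genes of G1/S and replication, 0 passed with edgeR and 6 had an unadjusted p under 0.05, against 17% of all tested genes. DESeq2 called 1 of the 41 (Orc1, higher) and limma-voom 0, against 5.01% and 2.38% of the genes each tested. The median log2 fold change of the 41 was 0.067. Ov_SNHG1 replicate 1 was the lowest library for 19 of the 41, where 15.4% of all tested genes had their lowest value in it. Without that library 5 of the 41 rose (Mcm3, Mcm5, Orc1, Tk1 and Uhrf1), where 2.91% of all tested genes were called higher. These calls restate the low values of the omitted library and are no separate result. A difference between this list and the 32 mitosis genes was not tested.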

How the data were processed

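Gene expression was measured in 6 stranded mRNA libraries. The submitters' processing notes name the tools StringTie, HISAT2 and SAMtools 1.3.1 and the human build GRCh38, while the rows carry mouse Ensembl identifiers. The authors deposited whole-number counts and FPKM values per gene and library. Which program counted reads, whether strand was used and which build the coordinates follow is not stated in the labels or headers; 0 of the 32 members had the coordinates of GENCODE M21 (GRCm38), so no build is named.

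Counts were tested in edgeR 4.0.16 by its quasi-likelihood F test (R 4.3.3; TMM, default filterByExpr, group as the only term, Benjamini-Hochberg adjustment over 14605 genes, threshold 0.05). CPM is per 1000000 counts, scaled by TMM factors of 0.9961 to 1.0046. The prior count of log2 CPM was 0.5. Rows with an identifier but no symbol (525, holding 0.194% of counts) stayed in the fit. DESeq2 1.42.0 and voom of limma 3.58.1 were alternatives, as were scaling by median of ratios or by totals only, filters of 0 counts or of 1 CPM in 3 libraries, a replicate block, removal of GC content and length trends (splines with 4 degrees of freedom) and leaving out each library. The code was tested on simulated data. GC content and length came from the longest coding GENCODE M21 transcript.

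All members were named, as were fixed brakes of G2/M, and of 7 other mitosis lists the highest and lowest gene, Foxm1, Mybl2 and Lin54. The members and lists were chosen with earlier results of these data known. The promoter motifs and the genes named from the fit without Ov_SNHG1 replicate 1 were chosen after values were seen. All replicate pairs differed by more than sampling noise (chi-square per degree of freedom 11.4 to 18.2).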

Additional observations from a re-analysis of the deposited data

How the results depend on the processing

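No member passed under any alternative that kept all libraries, where the median log2 fold change of the 32 stayed between 0.0503 and 0.0753. Those alternatives called 1.02% (no filter) to 5.01% (DESeq2) of the genes each tested. With 1 library left out, that median was 0.0165 to 0.0971 and 0 to 1 members were called (Bub1b, without Ov_SNHG1 replicate 1), 0 to 2 other mitosis genes (Stag2 and Nfyc, the same library) and 123 to 807 genes in all, against 350 with all libraries; those fits hold fewer libraries. DESeq2 called 646 genes in all and 1 other mitosis gene; the cause was not tested.

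The labels do not say that replicate numbers mark a shared culture or day, and the check differed between gene sets: deviations of same-numbered libraries correlated at -0.034, -0.021 and -0.026 over all tested genes, where no library correlated best with its own number, and at 0.213, 0.216 and 0.188 over the 32 members, where each did. The replicate block gave 163 calls in all (1.12% of tested genes), 0 among members, and moved Prc1 to 0.0067.

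The genes whose sign changed passed in neither fit, and their log2 fold changes with all libraries lay between -0.13 (Knl1) and 0.041 (Dlgap5). With GC content and length trends removed the values were -0.0102 (Ccnb2), 0.0195 (Cenpf), 0.0016 (Chek1), 0.0698 (Ect2), 0.031 (Hmmr), 0.088 (Kif11), 0.046 (Knl1), 0.047 (Mki67), 0.023 (Prc1) and 0.021 (Ttk). With no filter they were 0.0004 (Cdkn1a), 0.0084 (Kif11) and 0.0044 (Prc1), with total counts alone 0.0039 (Kif11) and 0.0002 (Prc1), with limma-voom 0.003 (Prc1) and with 1 CPM in 3 libraries -0.0026 (Cenpe). With 1 library left out the ranges were -0.031 to 0.088 (Ccnb2), -0.041 to 0.063 (Cdk1), -0.092 to 0.047 (Cdc25b), -0.035 to 0.048 (Cenpe), -0.055 to 0.075 (Kif11), -0.10 to 0.004 (Hmmr), -0.0076 to 0.096 (Dlgap5), -0.076 to 0.0011 (Kif20a), -0.076 to 0.13 (Prc1), -0.093 to 0.001 (Ect2), -0.0603 to 0.025 (Mki67), -0.15 to 0.017 (Lin54) and -0.12 to 0.053 (Cdkn1a).

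Intervals cover these libraries only.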
